A study of Mus musculus with 2 samples.

Results

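The olfactory receptor gene clusters of mouse chromosomes 2 and 9 were examined in a ChIP-seq and a MeDIP-seq library of embryonic stem (ES) cells. The intervals are given by coordinate: mm9 chromosome 2 from 85000001 to 90200000 (5.2 Mb, 5200 bins of 1 kb) and chromosome 9 from 37500001 to 40100000 (2.6 Mb, 2600 bins). These 7800 bins were set against the 3 Mb on either side of each interval and against the chromosome, in a series with 2299806 bins holding a read in either library. The flank with the lower coordinates, nearer the centromere, is called proximal and the other distal.

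The library labelled H2ABbd came from chromatin crosslinked with formaldehyde, sheared by sonication and precipitated with a home-made rabbit antibody against mouse H2ABbd. The library labelled 5mC came from sheared, denatured genomic DNA precipitated with clone 33D3, a mouse monoclonal antibody against 5-methylcytosine. Both used mouse ES cells grown with LIF, a cytokine that keeps them pluripotent, and without feeder cells, and the labels give no line, strain or sex. There was 1 library per group and no input library was used here. No difference between the libraries therefore has a replicate check, no test between them was made, and all intervals are at 95% and cover counting error only. Each file is named after the antibody that the labels give to the other sample. The labels were followed, and each direction between libraries rests on them. The cells could not be checked against expression markers, since no RNA was measured.

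Olfactory receptors are the odorant receptors of the nose, encoded by the largest gene family of mammals and arranged in long clusters rich in copies and pseudogenes. Each olfactory neuron expresses a single receptor allele, the other receptor genes lie in compacted chromatin, and in ES cells the whole family is silent. H2ABbd is a histone H2A variant whose name stands for Barr body deficient, after its depletion from the inactive X chromosome. MeDIP recovers fragments with methylated cytosine, which in mammals lies mostly at CpG, so that its yield at a place depends on how many CpGs are there as well as on their methylation.

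The RefSeq annotation of the GRCm38.p6 build, another build than that of the reads, was used only for names and neighbours. It lists 293 olfactory receptor genes in the longest unbroken run on chromosome 2, of which 222 are protein-coding and 71 are pseudogenes, with starts at most 500 kb apart. On chromosome 9 the longest run has 127 genes, of which 95 are protein-coding and 31 pseudogenes. Each run holds 3 other protein-coding genes. The runs were not placed on mm9, so no bin below is assigned to a gene. Promoter windows, from 250 bases before to 50 after the annotated start, were at hand for 186 and 79 of the coding receptor genes. They held a median of 1 CpG (range 0 to 7 on chromosome 2 and 0 to 8 on chromosome 9), and 97.3% and 93.7% held 3 CpGs or fewer. Over 27025 genes with a window the median was 7 and 31.9% held 3 or fewer. Median GC content was 32% and 35.3%, against 52.7% over all genes. The 250 bases before the start of 4 receptor genes, the first by symbol on each chromosome, show how sparse CpGs are, with every CpG in capitals (GRCm38.p6, 5′ to 3′ on the strand of the gene: Olfr1000 at chr2:85608909-85609158, minus strand; Olfr1006 at chr2:85678742-85678991, minus strand; Olfr147 at chr9:38401461-38401710, plus strand; Olfr148 at chr9:39613319-39613568, plus strand).
Olfr1000: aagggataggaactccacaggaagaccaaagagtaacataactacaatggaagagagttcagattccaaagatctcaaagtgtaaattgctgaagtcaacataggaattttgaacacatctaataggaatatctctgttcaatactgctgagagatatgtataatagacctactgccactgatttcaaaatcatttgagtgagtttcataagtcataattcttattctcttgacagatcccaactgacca
Olfr1006: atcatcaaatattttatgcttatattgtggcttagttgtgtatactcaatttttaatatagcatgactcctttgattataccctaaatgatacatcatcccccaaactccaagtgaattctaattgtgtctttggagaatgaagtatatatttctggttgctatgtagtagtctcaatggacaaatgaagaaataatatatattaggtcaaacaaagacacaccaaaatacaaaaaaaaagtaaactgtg
Olfr147: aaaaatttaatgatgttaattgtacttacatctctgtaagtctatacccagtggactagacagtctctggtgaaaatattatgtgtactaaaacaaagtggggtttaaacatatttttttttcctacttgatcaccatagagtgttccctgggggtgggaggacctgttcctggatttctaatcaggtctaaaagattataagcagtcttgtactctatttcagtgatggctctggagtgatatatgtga
Olfr148: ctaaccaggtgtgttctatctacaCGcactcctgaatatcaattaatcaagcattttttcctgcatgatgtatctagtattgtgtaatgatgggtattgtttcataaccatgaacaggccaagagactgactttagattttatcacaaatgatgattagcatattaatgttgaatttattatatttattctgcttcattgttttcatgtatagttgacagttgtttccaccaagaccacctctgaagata
Olfr148 has 1 CpG in this stretch and the other genes shown have 0. Of the promoter windows of receptor genes, 36% on chromosome 2 and 30.4% on chromosome 9 held none, so most held at least 1. Over all genes with a window 5.78% held none.

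Both libraries were sparse in both clusters. Reads that shared chromosome, strand and 5′ end were counted as 1 and are called distinct reads. The chromosome mean is the number of distinct reads per bin with a read in either library. By this measure chromosomes 2 and 9 as a whole stood at 0.904 and 0.923 in both libraries, not at 1. Bins without a read count in the density but not in the mean. On chromosome 2 the cluster held 1430 distinct reads of the library labelled H2ABbd, or 0.275 per bin, which is 0.447 of the chromosome mean (exact Poisson interval 0.424 to 0.471). It held 9597 of the library labelled 5mC, or 1.85 per bin and 0.517 of the mean (0.506 to 0.527). The chromosome 9 cluster held 808 and 5538 distinct reads, at 0.339 (0.316 to 0.363) and 0.525 (0.511 to 0.539) of the mean. The H2ABbd value on chromosome 9 depended on a few very deep bins outside the cluster that raise the chromosome mean. When the 0.1% most covered bins (in either library) were left out it was 0.503, and the other 3 values were 0.474 (H2ABbd, chromosome 2), 0.524 and 0.577 (5mC, chromosomes 2 and 9).

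The clusters were also sparser than their surroundings. Over both flanks together, the chromosome 2 cluster stood at 0.430 of flank density in the library labelled H2ABbd (exact conditional interval 0.404 to 0.457) and at 0.517 in the library labelled 5mC (0.504 to 0.529). For chromosome 9 the values were 0.495 (0.459 to 0.535) and 0.564 (0.548 to 0.581). The flanks of chromosome 2 were unlike each other: the proximal one held 0.442 and 2.60 distinct reads per bin and the distal one 0.837 and 4.54. The cluster stood below either, at 0.622 and 0.709 of the proximal flank and at 0.329 and 0.406 of the distal flank, H2ABbd before 5mC. On chromosome 9 it stood at 0.483 and 0.624 of the proximal flank and at 0.509 and 0.515 of the distal flank. The proximal flank of chromosome 9 includes a possible repeat pile-up, described below, and without the most covered bins the H2ABbd value against it was 0.670.

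**Figure D1:**
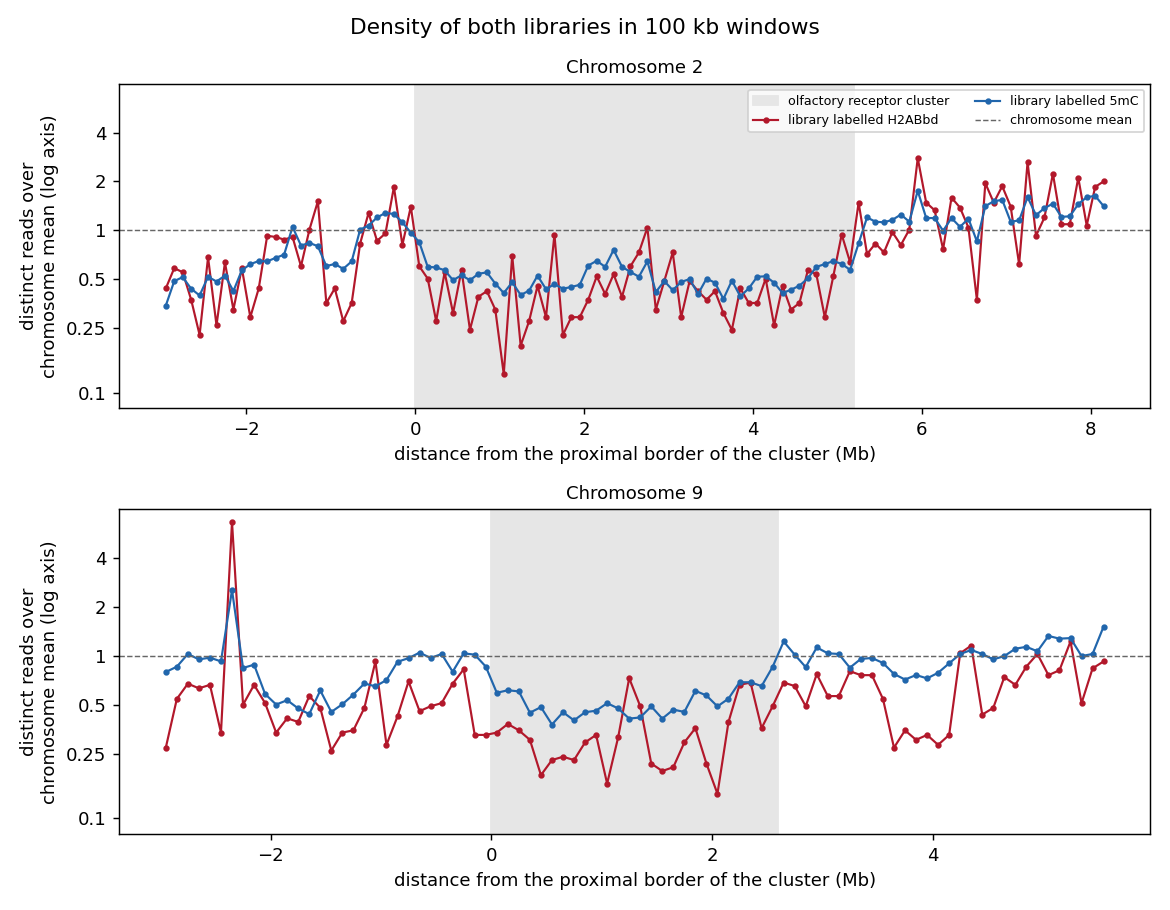
Distinct reads per bin over the chromosome mean (log axis) in 100 kb windows of both libraries, against distance in Mb from the proximal border of the cluster, which is shaded. A few very deep bins raise the H2ABbd mean of chromosome 9 (0.917 reads per bin, 0.585 without the most covered bins), which lowers that curve. Within the shaded stretch 51 of 52 windows on chromosome 2 and 25 of 26 on chromosome 9 lie below the chromosome median of the library labelled 5mC, and the peak in the proximal flank of chromosome 9 is the window with the possible repeat pile-up.

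Density changed across the borders, but stretches of the flanks were as sparse as the clusters. In the 500 kb inside the proximal border of chromosome 2 the library labelled 5mC had 1105 distinct reads, against 2082 in the 500 kb outside, a ratio of 0.531 (0.493 to 0.571). At the distal border it had 1091 against 1940 (0.562, 0.522 to 0.606). The H2ABbd ratios there were 0.381 (0.311 to 0.465, 138 reads against 362) and 0.619 (0.511 to 0.747, 180 against 291). The borders of chromosome 9 gave 0.577 (0.536 to 0.621) and 0.651 (0.608 to 0.697) in the library labelled 5mC. In the library labelled H2ABbd they gave 0.584 (0.472 to 0.720) and 0.818 (0.686 to 0.974), the last of 238 reads against 291. All 8 ratios were below 1. Their intervals were too, but these cover counting error only and are too narrow, since counts vary more than Poisson. An upper limit of 0.974 therefore does not settle the H2ABbd ratio at the distal border of chromosome 9. That border was the shallowest in both libraries. Right at the proximal border of chromosome 9 the library labelled H2ABbd showed no step, with 30 distinct reads in each of the last 2 windows of 100 kb outside and 31 and 35 in the first 2 inside. Farther out, the megabase of chromosome 2 from 82000001 to 83000000 held 28.7 H2ABbd and 168 5mC reads per 100 kb, against 27.5 and 185 in the cluster. On chromosome 9 the megabase from 35500001 to 36500000 held 41.7 and 220, against 31.1 and 213 in the cluster.

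Along the clusters the library labelled 5mC was low in nearly all windows. Its 52 windows of 100 kb on chromosome 2 held 135 to 302 distinct reads with a median of 178, and its 26 windows on chromosome 9 held 154 to 348 with a median of 198. The chromosome medians were 288 over 1787 windows and 325 over 1211. The fewest reads lay in the window from 88600001 to 88700000 on chromosome 2 and in that from 38000001 to 38100000 on chromosome 9. The most lay at the edges, in the first window on chromosome 2 and the last on chromosome 9. Windows this poor were not rare: 12.6% of the windows elsewhere on chromosome 2 and 12.4% of those on chromosome 9 were at or below the cluster median. In the flanks, 6 of 60 windows on chromosome 2 and 3 of 60 on chromosome 9 were.

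For the library labelled H2ABbd the windows held 8 to 64 distinct reads on chromosome 2 (median 25.5, chromosome median 39) and 13 to 67 on chromosome 9 (median 28.5, chromosome median 46). Of the windows elsewhere, 25% and 22.1% were at or below the cluster median. The SD over windows was 11.8 and 14.6 reads, a larger part of the median than the 33.5 and 45.9 reads of the library labelled 5mC, at counts several times lower. Blocks of 520 kb gave folds over the chromosome mean of 0.347 to 0.640 in the 10 blocks of chromosome 2 and of 0.245 to 0.503 in the 5 blocks of chromosome 9. Those of the library labelled 5mC were 0.448 to 0.629 and 0.433 to 0.675. The chromosome 9 mean was 0.917 H2ABbd reads per bin, but 0.585 without the most covered bins (5mC 4.06 and 3.66). The H2ABbd folds of chromosome 9 are lower for that reason and do not compare directly with the others. The highest H2ABbd block of chromosome 2 was the sixth (87600001 to 88120000, 205 distinct reads), in which the 5mC fold was 0.504.

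Bins without an H2ABbd read were the majority in both clusters. Their share was 81.9% on chromosome 2 (Clopper-Pearson interval 80.9 to 83%), against 67.0% in the flanks and 70.7% on the chromosome. On chromosome 9 it was 80.7% (79.2 to 82.2%), against 68.0% and 69.1%. The library labelled 5mC left 22.9% of cluster bins empty on chromosome 2 (21.8 to 24.1%), against 8.92% in the flanks and 11.2% on the chromosome, and 18.7% on chromosome 9 (17.2 to 20.3%), against 6.12% and 9.13%. Reads placed at random at the same density would leave 76.0% and 73.3% of bins empty in the library labelled H2ABbd and 15.8% and 11.9% in the library labelled 5mC. On the chromosomes the random values were 57.3% and 42.9% (H2ABbd) and 3.96% and 2.36% (5mC), so empty bins exceeded them there too, in the library labelled H2ABbd by more than in the clusters. The most covered bins count in these densities and lower the random values, most for H2ABbd on chromosome 9. There the variance over bins was 299 times the mean, and 2.49 times without those bins. After thinning of the deeper library to the number of distinct reads of the other, 73.3% and 71.4% of its cluster bins were empty, against 60.4% and 58.2% on the chromosomes and 56.7% and 54.6% in the flanks. At equal library totals the library labelled 5mC thus left fewer bins empty than the other in clusters, flanks and chromosomes alike. Local density was not equal. Thinned 5mC reads per cluster bin were 0.322 and 0.346, against 0.275 and 0.311 for H2ABbd. In the flanks they were 0.622 and 0.66 against 0.64 and 0.627, and on the chromosomes 0.56 and 0.649 against 0.556 and 0.847.

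Bins without a read of either library made up 20.5% of the chromosome 2 cluster (19.4 to 21.6%) and 16.3% of the chromosome 9 cluster (14.9 to 17.8%). The chromosomes as a whole had 9.62% and 7.68%, and the flanks 7.00% and 4.93%. Such bins were scattered: the 1067 on chromosome 2 formed 804 runs, the longest from 86976001 to 86983000 (7 kb), followed by 3 of 5 kb, the first from 86231001 to 86236000. On chromosome 9 the 425 formed 346 runs of at most 4 kb. The share of bins that neither library reached was thus higher where density was lower. Whether 42 bp reads can be placed in those bins was not tested. With such bins left out of the clusters, as they are out of the chromosome mean, the densities were 0.562 (H2ABbd) and 0.650 (5mC) of the mean on chromosome 2 and 0.405 and 0.627 on chromosome 9, still below 1.

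**Figure D2:**
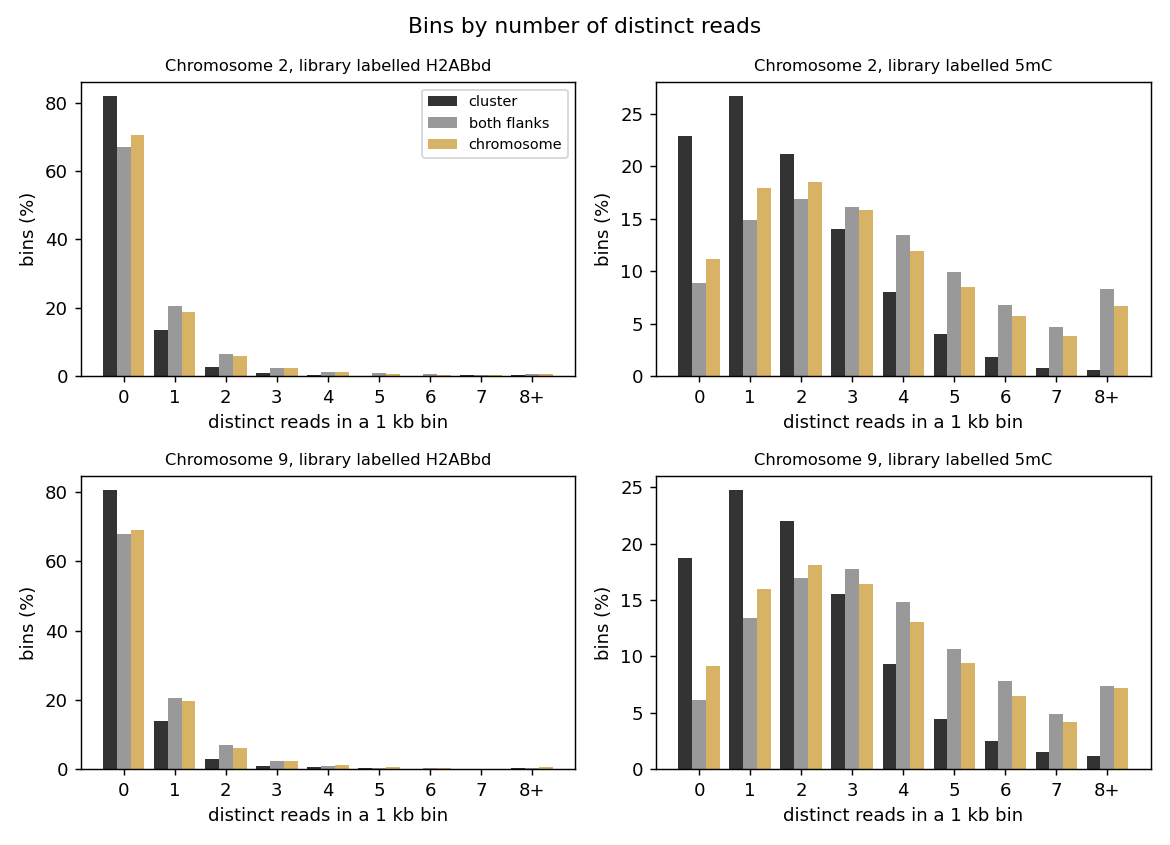
Share of 1 kb bins (%) by their number of distinct reads in the cluster, in both 3 Mb flanks together and on the whole chromosome, for each library and chromosome. In the library labelled 5mC the clusters have more bins with 0, 1 or 2 reads and fewer with 4 or more than the flanks or the chromosome, and in the library labelled H2ABbd 81.9% and 80.7% of cluster bins hold 0.

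The ratio of the libraries, the share of H2ABbd reads over the share of 5mC reads, was slightly below 1 in both clusters. It was 0.859 on chromosome 2 (0.812 to 0.908) and 0.841 on chromosome 9 (0.780 to 0.906). Were the file names right and the labels wrong, these ratios would be 1.16 (1.10 to 1.23) and 1.19 (1.10 to 1.28), and the order of the windows below would turn. The flanks together gave 1.03 (0.998 to 1.07) and 0.958 (0.926 to 0.992). On chromosome 2 the cluster's ratio was 0.832 of that of the flanks (0.779 to 0.888). Leaving out the most covered bins made it 0.842 (0.788 to 0.9). On chromosome 9 it was 0.878 of that of the flanks (0.809 to 0.952), but 0.971 (0.892 to 1.06) without the most covered bins. The lower ratio against the flanks on chromosome 9 thus rested on the most covered bins, among them the pile-up in the proximal flank. Against the rest of the chromosome, the most covered bins left out, the cluster's ratio was 0.902 (0.853 to 0.955) on chromosome 2 and 0.870 (0.806 to 0.939) on chromosome 9. These intervals cover counting error only and are too narrow. Over 100 kb windows, all bins kept, the mean ratio was 0.859 in the cluster and 0.891 over chromosome 2. For chromosome 9 the means were 0.847 and 0.914. Both gaps were small beside the spread of windows given below.

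In single windows of 100 kb the ratio scattered widely, from 0.314 to 2.00 on chromosome 2 (median 0.776, chromosome median 0.811) and from 0.377 to 2.31 on chromosome 9 (median 0.759, chromosome median 0.843). The SD over windows was 0.340 and 0.397. Among windows with at least 20 H2ABbd reads, the highest ratios owed much to single bins. The highest on chromosome 2 (86600001 to 86700000, 58 reads against 167) was 2.00 (1.46 to 2.71), and 1.18 (0.787 to 1.73) without its densest bin. On chromosome 9 the highest (38700001 to 38800000, 67 reads against 167) was 2.31 (1.72 to 3.09), and 1.51 (1.05 to 2.13) without its densest bin. The next highest were 1.70 (88000001 to 88100000) and 1.53 (38800001 to 38900000). The lowest of the 37 windows of chromosome 2 with at least 20 H2ABbd reads were 0.611 (87000001 to 87100000) and 0.650 (87400001 to 87500000). On chromosome 9 the lowest of 21 such windows were 0.497 (39400001 to 39500000) and 0.579 (38900001 to 39000000). The floor of 20 is on the H2ABbd reads, so it drops windows with lower ratios, down to 0.314 and 0.377.

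**Figure D3:**
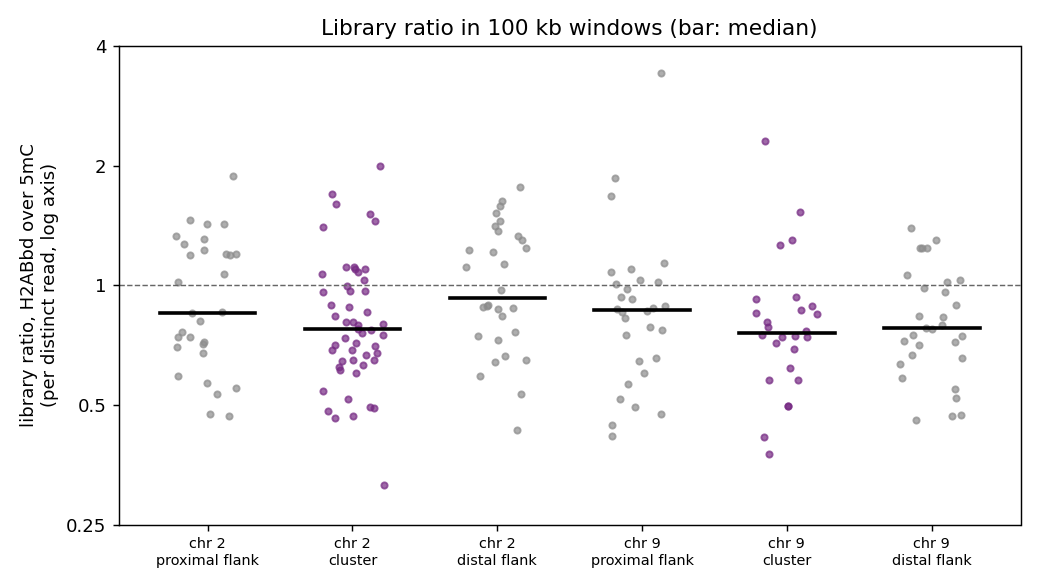
Ratio of the libraries, H2ABbd over 5mC per distinct read (log axis), in the 100 kb windows of each cluster and flank. Points are windows and bars are medians, which are 0.776 and 0.759 in the clusters, 0.854 and 0.868 in the proximal flanks and 0.932 and 0.781 in the distal flanks.

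Levels of the libraries in the clusters followed each other less closely than in the flanks. Over 5 kb bins Pearson's r of log2(RPM + 0.1) was 0.25 on chromosome 2 (1040 bins) and 0.16 on chromosome 9 (520 bins), against 0.46 and 0.32 over 1200 flank bins each. Over 100 kb windows r of the read numbers was 0.40 (52 windows) and 0.44 (26 windows), against 0.79 and 0.78 over 60 flank windows each. The flanks of chromosome 9 include the window with the possible repeat pile-up, at 613 H2ABbd and 1036 5mC reads, which can raise r. Spearman's rho, which uses ranks, was 0.47 and 0.38 in the clusters against 0.79 and 0.67 in the flanks. These values are descriptive. The points of each come from the same libraries, and counts and their range were smaller in the clusters.

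Enriched bins were those with a Poisson tail of at most 0.01 after adjustment over all bins and with at least 4 times the chromosome mean. In the library labelled H2ABbd 25 bins of the chromosome 2 cluster were enriched, 0.605% of the 4133 with a read (0.392 to 0.892%), against 1.11% on the chromosome. The chromosome 9 cluster had 8 of 2175 (0.368%, 0.159 to 0.723%), against 0.802%. The flanks had 1.76% on chromosome 2 and 0.473% on chromosome 9, the latter within the interval of the cluster, and the distal flank of chromosome 9 had 0.343%. They lay in 22 and 7 separate regions, the longest of 2 kb, and held 14.3% and 11.1% of the clusters' H2ABbd reads. The library labelled 5mC had 0 enriched bins in the chromosome 2 cluster, which allows a share of up to 0.0726%, against 0.433% on the chromosome. It had 1 in the chromosome 9 cluster (0.046%, 0.00116 to 0.256%), against 0.27%. None of these bins was enriched in both libraries, against 147 of 161548 bins with a read on chromosome 2 and 113 of 111781 on chromosome 9. With 0 and 1 enriched 5mC bins in the clusters, little or no overlap was possible, so this does not set the clusters apart. Calls needed 6 or 7 H2ABbd reads and 15 or 17 reads of the library labelled 5mC, the same minimum inside and outside the clusters, so a bin at the low level of the clusters had further to rise.

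The densest H2ABbd bin of each cluster held far more reads than the bins beside it. On chromosome 2 the bin from 86683001 to 86684000 held 25 distinct reads from 27 reads in all, 40.6 times the chromosome mean (26.3 to 60.0), with 5′ ends over 882 bp. The 5 bins before it held 4 H2ABbd reads and the 5 after it 8, above the cluster mean of 0.275 per bin. The library labelled 5mC had 6 reads there, 1.68 times its mean. The bin from 38704001 to 38705000 on chromosome 9 held 24 distinct reads from 24 in all, 26.2 times the mean (16.8 to 38.9), and 3 reads of the library labelled 5mC. Its 5 bins before and 5 after also held 4 and 8 H2ABbd reads, above the cluster mean of 0.311 per bin. The H2ABbd chromosome means were 0.616 on chromosome 2 and 0.917 on chromosome 9, so near-equal counts gave unlike folds. Plus-strand reads made up 20 of the 25 and 21 of the 24. Next on chromosome 2 came 87963001 to 87964000 with 13 distinct reads and 4 bins with 9 each, the first from 85140001 to 85141000. The bin adjoining the former, from 87962001, held 7 and was also enriched. Next on chromosome 9 came the adjoining bins from 39872001 and from 39871001, with 18 and 10.

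The single enriched bin of the library labelled 5mC, on chromosome 9 from 37737001 to 37738000, held 35 distinct reads from 36 reads in all, 8.62 times the mean (6.01 to 12.0). Its 5′ ends lay within 458 bp, 19 on the plus and 16 on the minus strand, and 2 H2ABbd reads fell in it. After it came 40076001 to 40077000 with 16 distinct reads and 39830001 to 39831000 with 14. The densest on chromosome 2 were 87712001 to 87713000 with 13, 87179001 to 87180000 with 12 and 86601001 to 86602000 with 11, none of them called. At the enriched H2ABbd bins the library labelled 5mC held 0 to 10 distinct reads on chromosome 2 (mean 4.04) and 0 to 9 on chromosome 9 (mean 3.75). The means over all cluster bins were 1.85 and 2.13. They were 2.32 and 2.55 once the bins that neither library reached, which could not be called, were dropped. Medians lay closer together, at 3 and 2.5 over the 25 and 8 enriched bins, against 2 over all bins of each cluster. The difference was not tested.

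No possible repeat pile-up, a bin at least 40 times the chromosome mean in both libraries, lay in either cluster. The counts of 0 allow shares of up to 0.0726% and 0.138% of bins with a read, and the chromosomes had 8 and 41 such bins, 0.00495% and 0.0367%, so the 0 does not set the clusters apart. The nearest were the adjoining bins from 35112001 to 35114000 in the proximal flank of chromosome 9, with 18930 and 89775 reads of the library labelled H2ABbd at 267 and 314 distinct positions. Repeated positions were few within the clusters. Of all H2ABbd reads there 9.72% on chromosome 2 and 13.3% on chromosome 9 repeated a position, against 18.7% and 18.6% on the chromosomes without the most covered bins and 91% and 86.8% with them. In the library labelled 5mC the shares were 2.86% and 2.89%, against 4.24% on each chromosome without the most covered bins. At most 4 H2ABbd reads shared a position in either cluster.

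Distinct reads in the clusters fell unevenly on the strands. The plus strand carried 61.5% of those of the library labelled H2ABbd on chromosome 2 (58.8 to 64.0%) and 59.9% on chromosome 9 (56.3 to 63.4%), the most covered bins left out. In the library labelled 5mC it carried 55.9% (54.9 to 56.9%) and 53.9% (52.6 to 55.3%). The chromosomes as a whole had 54.4% and 54.5% in the library labelled H2ABbd and 52.4% and 52.3% in the other, and the distal flanks 52.3% on each chromosome and 51.6% and 51.8%. The proximal flanks, at 57.7% and 56.7% (H2ABbd) and 55.0% and 52.8% (5mC), lay closer to the clusters, and their intervals overlapped those of the clusters. The excess was not particular to the clusters. When the 100 kb windows outside the cluster were ranked by their 5mC reads, the poorest quartile had 62.8% plus-strand H2ABbd reads on chromosome 2 (61.8 to 63.7%) and 62.3% on chromosome 9 (61.2 to 63.3%), and the richest 51.6% and 52.1%. For the library labelled 5mC the poorest quartile had 55.4% and 54.5% and the richest 51.2% on each chromosome. The share thus moved with read density, and its part in the densities above was not tested.

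**Figure D4:**
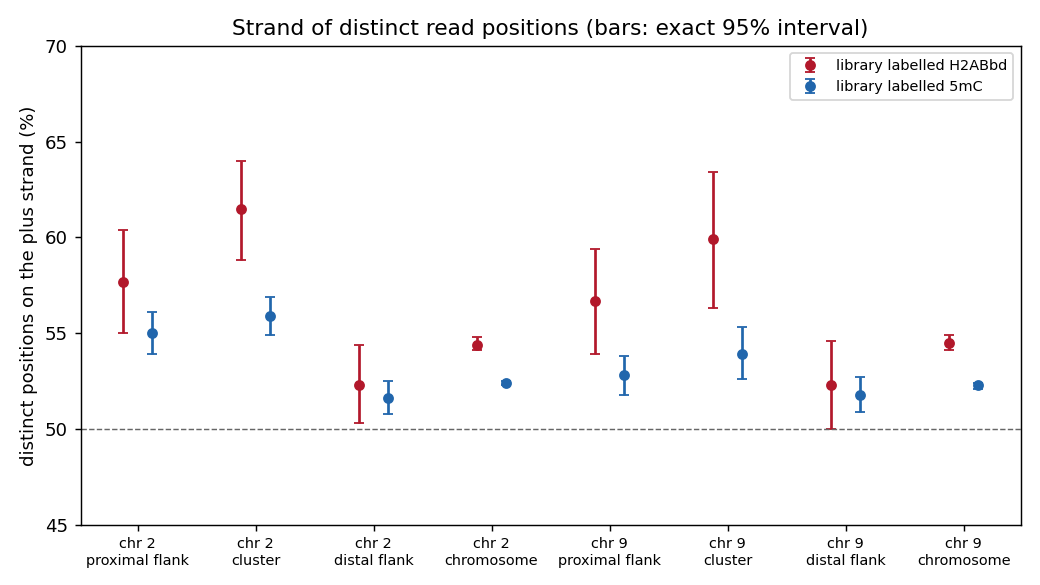
Share of distinct read positions on the plus strand (%) in each cluster, flank and chromosome for both libraries, with exact 95% intervals, the 0.1% most covered bins left out. The H2ABbd shares in the clusters, 61.5% and 59.9%, lie above those of the chromosomes, 54.4% and 54.5%.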

How the data were processed

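Per the submitters' processing notes, FastQC and Bowtie were used with the mm9 build. Neither tool versions nor the handling of reads that fit several places is given in the sources used here. Each line of a deposited file is 1 aligned 42 bp read. The deposited score is 255 on every regular line and was not used. The library labelled H2ABbd held 3503839 reads at 1397289 distinct positions and the library labelled 5mC 9266471 at 8056333. Lines with broken separators (8 and 1) were left out.

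Read starts were moved 100 bp towards the 3′ end and counted in 1 kb bins. Adjusted tails are Benjamini-Hochberg over all bins with a read on chromosomes 1 to 19 and X. Density intervals are exact Poisson with the chromosome mean taken as fixed, shares are Clopper-Pearson, ratios of counts are conditional exact binomial, and ratios of library ratios use a Wald interval of the logarithm. Limits for a count of 0 use 3 counts. Amplified reads carried no molecular identifiers, so all intervals cover counting error only. Since counts vary more than Poisson (variance 1.49 to 3.11 times the mean over cluster bins) they are too narrow. Without the most covered bins, the library ratios use library totals without them.

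Named bins are the 3 with the most distinct reads in each cluster and library, ties taken by position. Named windows have the 2 highest and 2 lowest ratios among windows with at least 20 H2ABbd reads. Named runs are the 2 longest without reads, or, on chromosome 9, only their longest length. Receptor genes shown are the first 2 by symbol on each chromosome within the longest run; the limit to that run was added later. The intervals, lists and rules were chosen with earlier results of these data known. The strand counts were chosen after the data were seen. The calling step was tried only on simulated Poisson counts. Real counts vary more, so the trial does not show how many bins are called without enrichment. Python 3.11.15, numpy 2.4.6, scipy 1.17.1 and matplotlib 3.10.9 were used.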

Additional observations from a re-analysis of the deposited data

How the results depend on the processing

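Over 80 values from 20 alternatives set earlier and 3 added after seeing the data, all 48 densities and all 6 library ratios stayed below 1. For the library ratio this does not set the clusters apart, since the chromosome medians over 100 kb windows were 0.811 and 0.843. Over that of the flanks, the ratio of the chromosome 9 cluster was 0.971 (0.892 to 1.06) without the most covered bins. Leaving out the shift left the 10 values it touched within their intervals. With all reads kept, the pile-ups raise the chromosome means, more so in the library labelled H2ABbd. Density over the chromosome mean was then 0.0447 (H2ABbd, chromosome 2), 0.0515 (H2ABbd, chromosome 9), 0.307 (5mC, chromosome 2) and 0.311 (5mC, chromosome 9). Density over the flanks was then 0.344, 0.0191, 0.495 and 0.221, and, with the pile-ups left out of the flanks (added), 0.344 (H2ABbd) and 0.495 (5mC) on chromosome 2 and 0.545 (H2ABbd) on chromosome 9, and the library ratio was 0.424 and 0.432. Against the mean over all bins the densities were 0.494, 0.367, 0.572 and 0.569, and over cluster bins with a read in either library (added) 0.562, 0.405, 0.650 and 0.627. Without the 0.1% most covered bins they were 0.474 and 0.503 (H2ABbd) and 0.577 (5mC, chromosome 9), and density over the flanks of chromosome 9 was 0.562 (H2ABbd). Flanks of 1 Mb gave 0.582 (H2ABbd, chromosome 9), 0.476 and 0.541 (5mC), and flanks of 5 Mb 0.463 (H2ABbd) and 0.564 (5mC) on chromosome 2. Without possible pile-ups the flanks of chromosome 9 (added) gave 0.586 and 0.582.

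The share of empty bins follows bin size and depth: 90.1% and 89.4% (H2ABbd) and 46.0% and 41.1% (5mC) in 500 bp bins, 41.9%, 38.7%, 0.0962% and 0.192% in 5 kb bins, and 73.3% and 71.4% for 5mC thinned. At an adjusted tail of 1e-05 the enriched H2ABbd bins were 6 and 2, 0.145% and 0.092% of bins with a read against 0.362% and 0.261% on the chromosomes. With the chromosome mean taken without the most covered bins, the library labelled 5mC had 2 on chromosome 9 (0.092% against 0.445%), and the library labelled H2ABbd had 11 there, 0.506% against 1.16% on the chromosome. With 1 library per group and 6 or 7 reads needed for a call, moderate H2ABbd enrichment of single bins was not detectable at this depth. No paired analysis was possible because each group has 1 library.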
